A study of Homo sapiens with 12 samples.

Results

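The 46 genes described here encode the proteasome: the subunits of its core and regulatory particles, its activators, its inhibitor PSMF1 and its assembly chaperones. They are the rows of the count table whose symbol is PSM, a letter from A to G and a number, and whose mean raw count over the 12 libraries was at least 50. That minimum kept 46 of 48 such rows in a table of 59653 gene symbols. The kept gene nearest to it was PSMB10, with a mean of 129 counts, and the 2 rows left out were the thymus subunit PSMB11, with a mean of 4.58 counts, and the testis subunit PSMA8, with 0.25. All 46 were among the 24671 genes that passed the filter on low counts.

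The libraries are total RNA from neurons that were made from induced pluripotent stem cells of IMR-90, an established human fetal lung fibroblast line. One group of 6 received an siRNA that serves as negative control (siNC), and the other group of 6 an siRNA against ZCCHC17 (siZCC), which encodes a zinc-finger protein of the nucleus and nucleolus. Sample titles also carry the letters NPC, which no label explains, and neither the day of differentiation nor the length of siRNA treatment is given. Nothing says that the 6 libraries of a group came from separate cultures. The p-values therefore set the group difference against the spread between these libraries, which may be technical.

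The proteasome is the main protease of the cytosol and nucleus for proteins tagged with ubiquitin. Its 20S core is a barrel of outer alpha rings and inner beta rings, and the catalytic subunits PSMB5, PSMB6 and PSMB7 sit in the beta rings. The 19S regulatory particle binds ubiquitin, unfolds the substrate with a ring of ATPases and feeds it into the core. Interferons induce PSMB8, PSMB9 and PSMB10, which take the places of the constitutive catalytic subunits in newly built immunoproteasomes, and PSME1 and PSME2, which form the PA28 alpha-beta cap. Immunoproteasomes favour peptides that suit MHC class I, and neurons are known for low levels of these subunits.

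After the ZCCHC17 siRNA, 9 of the 46 genes were lower and 0 were higher (quasi-likelihood test of edgeR, adjusted p under 0.05 by Benjamini-Hochberg over all 24671 genes). Of all these genes, 10.8% were lower in siZCC and 11.4% were higher. The largest falls were in the inducible subunits PSMB9, by 27.1%, and PSMB8, by 24.0%, while the other 7 falls were between 6.79% and 10.8%. Those 7 were PSMA4 of the alpha ring, the ATPases PSMC1, PSMC3 and PSMC5, the cap protein PSME3, and the chaperones PSMD5 and PSMG4. At an unadjusted p under 0.05 there were 15 lower and 2 higher genes, but the share of all genes at that threshold was not counted. DESeq2's Wald test called 10 genes, none of them higher. The median log2 fold change of the 46 was -0.046, with 13 positive and 33 negative values, and the median of all genes tested was -0.0016. Positive values made up 28.3% of the 46, against 49.6% of all genes tested. At a mean count of at least 1000, 31.7% of proteasome genes and 51.5% of all genes were positive. Without siNC replicate 3 the median of the 46 was -0.027.

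The 9 lower genes are 19.6% of the 46, but calls were more frequent among abundant genes. Among the 11139 genes with a mean count of at least 1000, 14.7% were lower and 17.2% higher. Of the 41 proteasome genes above that mean, 17.1% (7 genes) were lower, a share near that background, and 0 were higher. The plot of fold changes by role shows every gene with its interval.

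**Figure D1:**
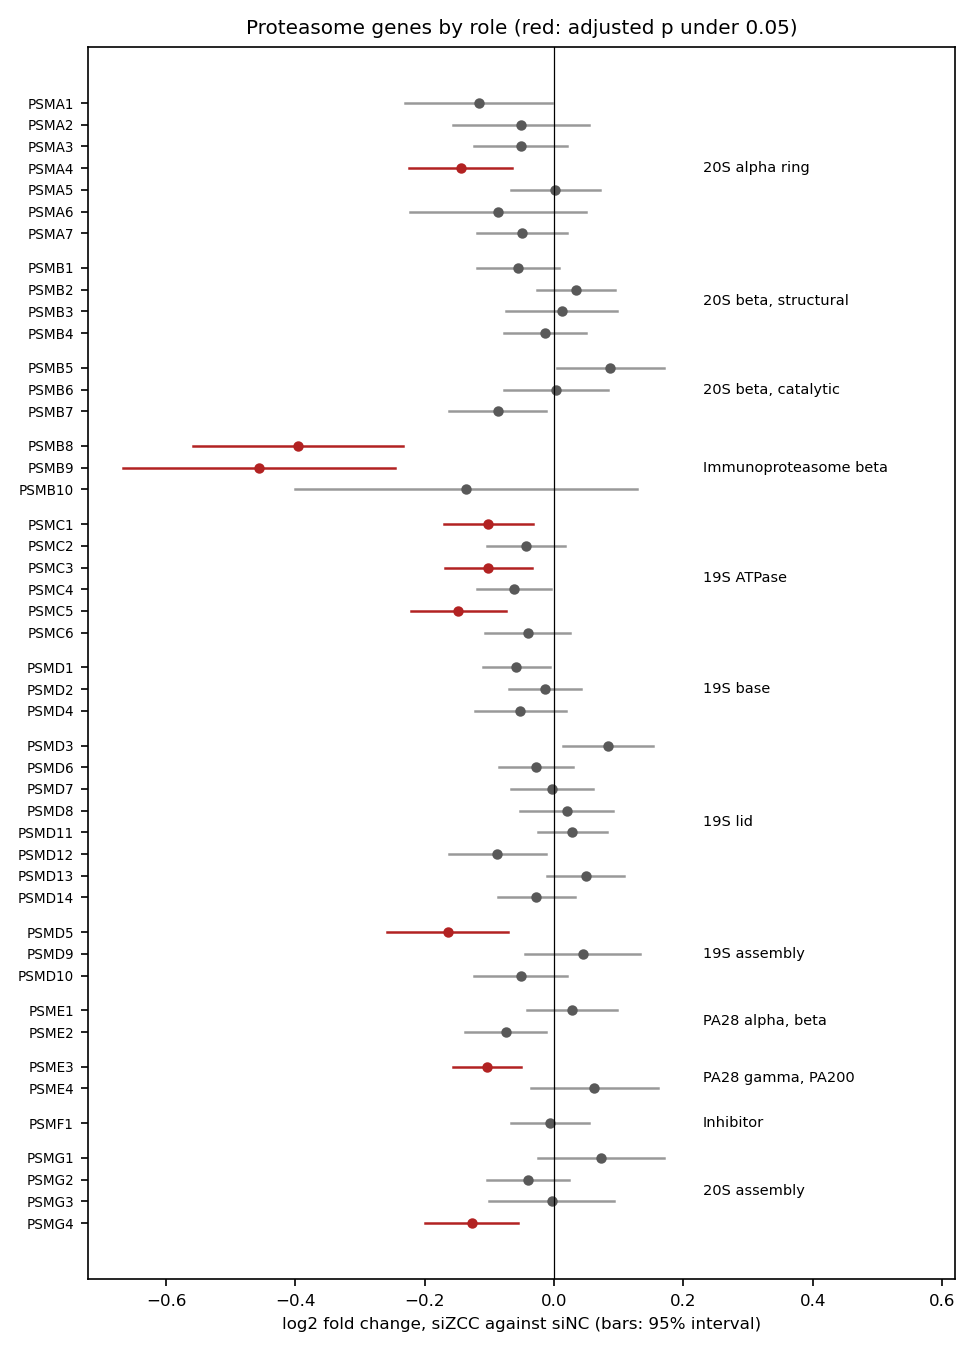
Log2 fold change of each of the 46 proteasome genes, siZCC against siNC (x axis; points are edgeR estimates, bars 95% intervals, 6 libraries per group), in order of role (y axis). Red marks the 9 genes with an adjusted p under 0.05, all of them left of 0, and PSMB8 and PSMB9 lie farthest left.

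The targeted gene was lower in every siZCC library. ZCCHC17 stood between 54.0 and 61.0 CPM (counts scaled to a common library total with TMM factors) in siNC and between 9.37 and 10.6 CPM in siZCC, a log2 fold change of -2.51 (SE 0.0402, adjusted p = 3.52e-17, edgeR). The siNC libraries held 90755953 to 120023356 counts and the siZCC libraries 76115083 to 105389055, and the biological coefficient of variation was 6.55%. In each library the scarcest of the 46 genes, PSMB10, still had between 80 and 188 counts.

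The constitutive catalytic subunits were abundant and none passed the test. PSMB5 carries the chymotrypsin-like site, PSMB6 the caspase-like site and PSMB7 the trypsin-like site. PSMB5 (chr14:23016543-23035230 in GRCh38) was at a lowest, median and highest value of 89.6, 93.7 and 99.6 CPM in siNC, and 90.8, 102 and 105 CPM in siZCC. The ranges overlapped, although 4 of 6 siZCC values lay above the highest siNC value. Its log2 fold change was 0.087 (SE 0.0390, 95% interval 0.0048 to 0.17, adjusted p = 0.123, edgeR). PSMB6 (chr17:4796144-4798503) ran at 62.6, 63.8 and 70.0 CPM in siNC and at 59.7, 65.7 and 69.6 CPM in siZCC. These ranges almost coincide, and the log2 fold change of 0.0028 (SE 0.0380, 95% interval -0.077 to 0.083, adjusted p = 0.969, edgeR) had no stable sign. PSMB7 (chr9:124353466-124415444) was at 74.3, 76.1 and 82.8 CPM in siNC and at 67.6, 73.8 and 76.5 CPM in siZCC, and 5 of the 6 siZCC libraries were below all siNC libraries. Its value was -0.087 (SE 0.0353, adjusted p = 0.0873, edgeR), short of the threshold.

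Their inducible counterparts were scarce in control cells, and 2 of 3 passed the test as lower after the ZCCHC17 siRNA. PSMB8, which replaces PSMB5 (chr6:32840717-32844703), stood at a lowest, median and highest value of 7.98, 9.79 and 9.98 CPM in siNC and 6.19, 7.02 and 8.36 CPM in siZCC. Only siNC replicate 5 was low enough to reach the siZCC range, and 5 of 6 siZCC libraries lay below every siNC library. The mean went from 9.38 ± 0.822 to 7.13 ± 0.848 CPM (SD, n = 6 each), a log2 fold change of -0.40 (SE 0.0768, 95% interval -0.56 to -0.23, adjusted p = 0.00147, edgeR).

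PSMB9, which replaces PSMB6 and is encoded next to PSMB8 in the MHC region (chr6:32844136-32859585), gave 3.12, 4.15 and 4.35 CPM in siNC and 2.42, 2.69 and 3.28 CPM in siZCC. In siNC replicates 2 and 5 were the low ones, at 3.31 and 3.12 CPM, while siZCC replicates 3 and 6 were the highest of their group, so 4 of 6 siZCC values lay below the whole siNC range. The mean fell from 3.89 ± 0.531 to 2.83 ± 0.358 CPM (SD, n = 6 each), a log2 fold change of -0.46 (SE 0.0996, 95% interval -0.67 to -0.25, adjusted p = 0.00348, edgeR). PSMB8 and PSMB9 share their low and high libraries, as the plot of the 6 catalytic subunits shows. Their annotated exons also overlap in part, although the principal transcript of neither shares bases with exons of another gene.

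PSMB10, which replaces PSMB7 and lies on another chromosome (chr16:67934502-67937087), gave 0.958, 1.37 and 1.59 CPM in siNC and 0.971, 1.24 and 1.46 CPM in siZCC. No siZCC value fell below the siNC range. The log2 fold change was -0.14 (SE 0.125, adjusted p = 0.484, edgeR), and its 95% interval from -0.40 to 0.13 holds both 0 and a fall as large as that of PSMB8. The estimate ran from -0.078 without siNC replicate 2 to -0.22 without siNC replicate 5, and was -0.089 without siNC replicate 3 and -0.081 without siZCC replicate 5. With a mean of 129 counts per library it had the widest interval of the 46. In addition 45.3% of its principal transcript is also exon of AC040162.1, a gene with a mean of 331.5 counts and a log2 fold change of 0.12, so its reads are uncertain.

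**Figure D2:**
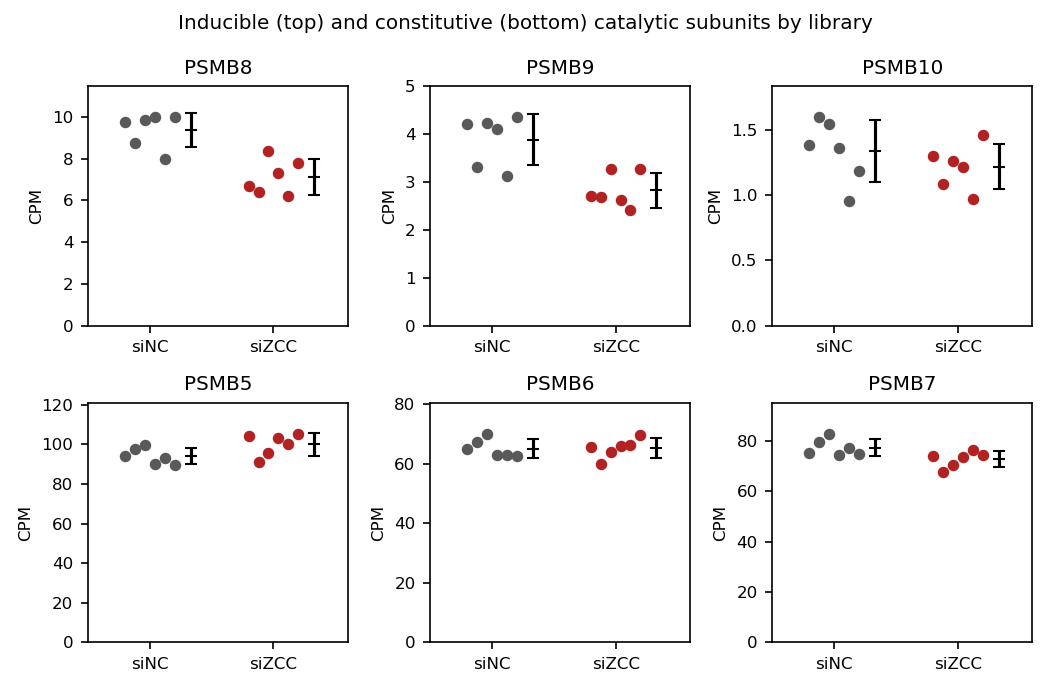
CPM (y axes, from 0) of the inducible subunits PSMB8, PSMB9 and PSMB10 (top) and of the constitutive subunits they replace, PSMB5, PSMB6 and PSMB7 (bottom), with 1 point per library in order of replicate number and the mean with its SD beside each group of 6. For PSMB8 and PSMB7, 5 of 6 siZCC points lie below all siNC points, for PSMB9 4 of 6 do, and for PSMB10 none does.

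Per library, PSMB8 amounted to 9.996 ± 1.07 CPM for each 100 CPM of PSMB5 in siNC and 7.14 ± 0.900 in siZCC (SD, n = 6 each). The siNC libraries covered 8.57 to 11.1 and the siZCC libraries 6.19 to 8.74, and 5 of the 6 siZCC libraries were below all siNC libraries. PSMB9 stood at 5.98 ± 0.857 for each 100 CPM of PSMB6 in siNC and 4.34 ± 0.531 in siZCC, again with 5 of 6 below. PSMB10 stood at 1.73 ± 0.272 for each 100 CPM of PSMB7 in siNC and 1.67 ± 0.235 in siZCC, with 0 of 6 below. These proportions are given as a description and were not tested, since they were formed from genes already seen to differ.

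The cap proteins that complete the inducible set moved little. PSME1, the alpha subunit of PA28 (chr14:24136158-24138967), gave 47.8, 49.4 and 52.1 CPM in siNC and 47.3, 50.7 and 53.9 CPM in siZCC, with a log2 fold change of 0.028 (SE 0.0332, 95% interval -0.042 to 0.098, adjusted p = 0.602, edgeR). PSME2, the beta subunit (chr14:24143362-24147570), gave 37.3, 39.0 and 41.7 CPM in siNC and 35.9, 37.4 and 37.6 CPM in siZCC. The siZCC libraries were tightly grouped near the lowest siNC library, 2 of them below it, and the log2 fold change was -0.075 (SE 0.0295, 95% interval -0.14 to -0.013, adjusted p = 0.0787, edgeR). Of the 5 inducible genes, then, 2 were lower, 0 were higher, and 3 did not pass the test. The PSME1 interval lies wholly above the intervals of PSMB8 and PSMB9.

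Genes induced by interferon often carry an interferon-stimulated response element in the promoter. It was searched for as GAAA, any 2 bases and GAAA again, on both strands, from 250 bases before to 50 after each RefSeq gene start in GRCh38.p14. Of 35116 promoters, 3.57% held a match, and of 27305 genes 4.38%. A promoter was found for 40 of the 46 proteasome genes, and 7 of these 40 held a match: PSMA4, PSMB4, PSMB8, PSMB10, PSME1, PSME2 and PSMG4. The inducible set supplied 4 of the 7. PSMB9 had none in its own window, but the window of its divergent neighbour TAP1, the peptide transporter gene that shares the upstream interval, held 2 overlapping matches 354 bases before the RefSeq start of PSMB9, at position 32854192. The GENCODE span of PSMB9 given above begins farther upstream and covers them. The sequences below show these stretches beside each other, for PSMB8, which passed the test, and for PSMB10, PSME1, PSME2 and TAP1, which did not. Each is 30 bases, 5′ to 3′ on the strand of the named gene, with the matching letters in capitals.
PSMB8, chr6:32844032-32844061, minus strand: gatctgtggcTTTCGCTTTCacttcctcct
TAP1, chr6:32853816-32853845, minus strand: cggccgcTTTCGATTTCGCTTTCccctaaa
PSMB10, chr16:67936852-67936881, minus strand: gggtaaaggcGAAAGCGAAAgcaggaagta
PSME1, chr14:24136189-24136218, plus strand: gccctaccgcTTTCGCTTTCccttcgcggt
PSME2, chr14:24146619-24146648, minus strand: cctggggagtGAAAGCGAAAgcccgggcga

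Of these 4 proteasome genes only PSMB8 passed the test. PSMB10 (-0.14) and PSME2 (-0.075) had negative log2 fold changes that did not pass, and PSME1 was at 0.028. PSMA4 and PSMG4, which also held a match, were lower, and PSMB4 was at a log2 fold change of -0.014 (SE 0.0302, adjusted p = 0.784, edgeR). A gamma-activated site, searched as TTCNNNGAA, was in 9.38% of genes with a promoter and in 7 of 40 proteasome genes, PSMB8 among them. The letters TGACNNNGC of the antioxidant response element, to which NFE2L1 and NFE2L2 bind, were in 16.1% of genes with a promoter and in 15 of 40 proteasome genes. A match is only a description of the letters, and no binding was measured.

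The alpha ring, which gates the core, had 1 lower gene of 7. PSMA4 (chr15:78540405-78552419) gave a lowest, median and highest value of 74.3, 76.6 and 85.2 CPM in siNC and 65.8, 70.4 and 74.6 CPM in siZCC. All but 1 of the siZCC libraries lay below every siNC library. Its mean went from 78.1 ± 3.88 to 70.7 ± 3.37 CPM (SD, n = 6 each), a log2 fold change of -0.14 (SE 0.0378, adjusted p = 0.0113, edgeR). The other 6 alpha genes lay between -0.12 (PSMA1, adjusted p = 0.137) and 0.0020 (PSMA5, adjusted p = 0.973) and did not pass. The structural beta subunits PSMB1, PSMB2, PSMB3 and PSMB4 were between -0.055 (PSMB1) and 0.034 (PSMB2), and 0 of 4 passed. Summed over the 14 constitutive core genes, the level was 936 ± 35.9 CPM in siNC against 922 ± 22.4 CPM in siZCC (SD, n = 6 each), and the ranges overlapped.

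In the 19S particle 3 of 17 genes (17.6%) were lower, near the 14.7% of genes with a mean count of at least 1000. None of the 17 was higher, where 17.2% of such genes were. All 3 lower genes were among the 6 ATPases, which form the unfolding ring. The 6 ATPases all had negative values, with a median of -0.082. PSMC5 (chr17:63827152-63832026) gave 81.7, 84.7 and 91.9 CPM in siNC and 73.3, 77.4 and 82.2 CPM in siZCC. Only siZCC replicate 5 reached into the siNC range. The mean went from 85.3 ± 3.63 to 77.0 ± 3.30 CPM (SD, n = 6 each), a log2 fold change of -0.15 (SE 0.0347, adjusted p = 0.00564, edgeR). PSMC5 shares 27.2% of its principal transcript with exons of FTSJ3, whose own value was -0.0066 (adjusted p = 0.913).

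PSMC3 (chr11:47418769-47426473) gave 97.0, 99.4 and 106 CPM in siNC and 89.1, 93.8 and 99.1 CPM in siZCC, and 5 of the 6 siZCC libraries were below all siNC libraries. Its log2 fold change was -0.10 (SE 0.0320, adjusted p = 0.0297, edgeR). PSMC1 (chr14:90256495-90275429) gave 93.2, 96.8 and 104 CPM in siNC and 87.0, 90.4 and 96.9 CPM in siZCC, also with 5 of 6 below. Its log2 fold change was -0.10 (SE 0.0323, adjusted p = 0.0319, edgeR), and 82.1% of its principal transcript is also exon of NRDE2, at -0.045 (adjusted p = 0.306). Both calls were the least secure of the 9. PSMC3 lost its call without siNC replicate 1, 2 or 3 or without siZCC replicate 2, 3 or 4, at an adjusted p of up to 0.0617. PSMC1 lost its call without siNC replicate 1, 3 or 6 or without siZCC replicate 1, 3 or 4, at an adjusted p of up to 0.0809, and also with 1 surrogate variable (log2 fold change -0.081, adjusted p = 0.141) and with a GC and length correction (adjusted p = 0.0572). The remaining ATPases PSMC2, PSMC4 and PSMC6 were between -0.062 (PSMC4, adjusted p = 0.115) and -0.041 (PSMC6, adjusted p = 0.381).

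None of the 11 non-ATPase subunits of the 19S base and lid passed. The scaffold PSMD2 was the most abundant of the 46 in CPM, at 276 ± 6.59 in siNC and 273 ± 7.03 in siZCC (SD, n = 6 each; log2 fold change -0.014, adjusted p = 0.746, edgeR). The other scaffold, PSMD1, was at -0.058 (SE 0.0247, adjusted p = 0.102) and the ubiquitin receptor PSMD4 at -0.052 (adjusted p = 0.299). The lid, which carries the deubiquitinase PSMD14, was evenly split, with 4 positive and 4 negative values. Its ends were PSMD12 at -0.088 (SE 0.0356, adjusted p = 0.0873) and PSMD3 at 0.084 (SE 0.0330, adjusted p = 0.0796), and PSMD14 was at -0.027 (adjusted p = 0.536). Summed over the 17 genes of the particle, the level was 1806 ± 46.6 CPM in siNC against 1773 ± 34.1 CPM in siZCC (SD, n = 6 each).

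Of the caps beside PA28 alpha-beta, PSME3 was lower. It encodes PA28 gamma, the nuclear activator that promotes degradation without ubiquitin (chr17:42824385-42843758). Its lowest, median and highest values were 117, 119 and 122 CPM in siNC and 106, 112 and 113 CPM in siZCC, so the groups did not overlap. The mean went from 119 ± 1.57 to 111 ± 2.76 CPM (SD, n = 6 each), a log2 fold change of -0.10 (SE 0.0250, adjusted p = 0.00655, edgeR). PSME4, the PA200 cap, was at 0.062 (SE 0.0466, adjusted p = 0.377), and the inhibitor PSMF1 at -0.0067 (SE 0.0285, adjusted p = 0.899).

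Among the assembly factors 1 chaperone of each particle was lower. PSMG4, a partner of PSMG3 in early alpha ring assembly (chr6:3231403-3303373), gave 25.8, 26.4 and 26.7 CPM in siNC and 22.4, 23.9 and 25.4 CPM in siZCC. The groups did not overlap, and the mean went from 26.3 ± 0.416 to 24.0 ± 1.16 CPM (SD, n = 6 each), a log2 fold change of -0.13 (SE 0.0339, adjusted p = 0.0123, edgeR). PSMG3 itself was at -0.0033 (adjusted p = 0.969), PSMG2 at -0.040 and its partner PSMG1 at 0.073 (adjusted p = 0.287). PSMD5, a chaperone of the 19S base (chr9:120815496-120842984), gave 22.8, 24.8 and 26.5 CPM in siNC and 20.7, 21.7 and 23.3 CPM in siZCC, and 4 of the 6 siZCC libraries were below all siNC libraries. Its log2 fold change was -0.16 (SE 0.0444, adjusted p = 0.0134, edgeR), and the related chaperones PSMD9 and PSMD10 were at 0.044 and -0.052 and did not pass.

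PSME3 and PSMG4 were the 2 genes with no overlap between groups, both lower in siZCC. Among all genes with a mean count of at least 1000, 6.72% lay wholly lower in siZCC and 8.34% wholly higher. Of the 41 proteasome genes at that level 2 were wholly lower, a count near that background, while 0 were wholly higher, against the 8.34%. The wholly lower count rose to 6 of 41 without siZCC replicate 5 or 6 and to 4 without siNC replicate 5. In these settings 8.02% to 8.08% of the abundant genes were wholly lower. The sum over the 46 genes was 3331 ± 89.0 CPM in siNC (3251 to 3493) and 3266 ± 61.6 CPM in siZCC (3207 to 3376), so the mean fell by 1.94%, with overlapping ranges. In bulk RNA, fewer cells of a type that expresses a gene and less RNA per cell cannot be told apart.

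Levels between genes were compared per kilobase of the principal transcript, in siNC. PSMB4 was highest at 123 CPM per kb, followed by PSMA7 at 120.0, PSME3 at 119 and PSMD4 at 96.4. PSMB5, PSMB6 and PSMB7 were close together at 72.7, 76.3 and 78.8 CPM per kb. The inducible subunits were far lower on this scale, with PSMB8 at 8.34, PSMB9 at 4.97 and PSMB10 at 1.10 CPM per kb. The low levels of PSMA6 (6.87), PSMA2 (5.38), PSMA1 (9.21) and PSMD9 (3.72) are uncertain, since 81.0%, 54.1%, 53.2% and 43.8% of their principal transcripts overlap exons of other genes. In 32 of the 46 genes the principal transcript shares no such bases, although exons of their other transcripts can, as in PSMB8, PSMB9, PSME3 and PSMG4. The table also holds 35 rows of proteasome pseudogenes, which together had a mean of 322 counts against 332244 for the 46 genes.

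**Figure D3:**
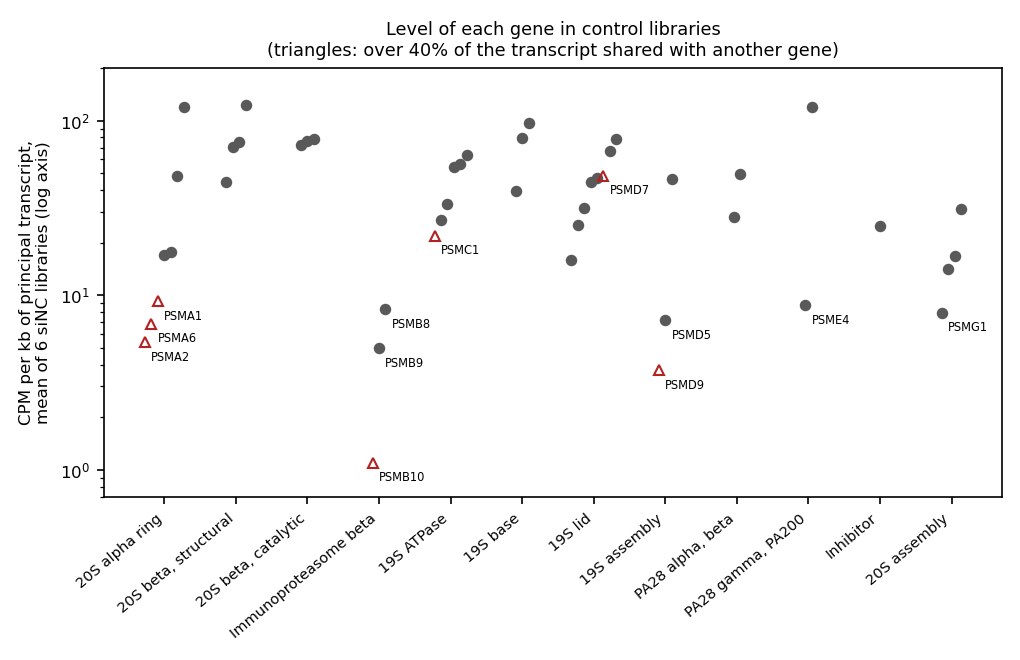
Level of each proteasome gene in siNC (mean of 6 libraries, CPM per kb of principal transcript, log axis), grouped by role along the x axis. The constitutive catalytic genes cluster between 72.7 and 78.8 CPM per kb and the inducible ones lie between 1.10 and 8.34, while open triangles mark genes with over 40% of the transcript shared with another gene.

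In some libraries many proteasome genes stood apart from their group in 1 direction. Library siNC replicate 3 led its group in 37 of the 46 genes, against 23.5% of the 11139 abundant genes, and siZCC replicate 6 led in 26 of 46, against 17.1%. At the other end, siNC replicate 5 was the lowest of its group for 21 genes, against 17.4%. Library siZCC replicate 4 was the highest for 2 genes and the lowest for 12, against 16.1% and 16.4% of the abundant genes. For siNC replicate 6 these counts were 3 and 10, against 13.8% and 23.7%, so its count of lowest genes was near the share of abundant genes. More mixed were siZCC replicate 2, with 7 and 13 (27.9% and 26.2%), and siZCC replicate 5, with 8 and 6 (18.1% and 18.1%). With siNC replicate 3 and siZCC replicate 6 both left out, a choice made after seeing the data, 8 genes passed, all 8 lower and all among the 9. The one lost was PSMC3 (adjusted p = 0.0656, edgeR), and PSMB8 and PSMB9 were then at -0.41 and -0.48. The map of deviations by library shows these libraries and the wider swing of PSMB8, PSMB9 and PSMB10.

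**Figure D4:**
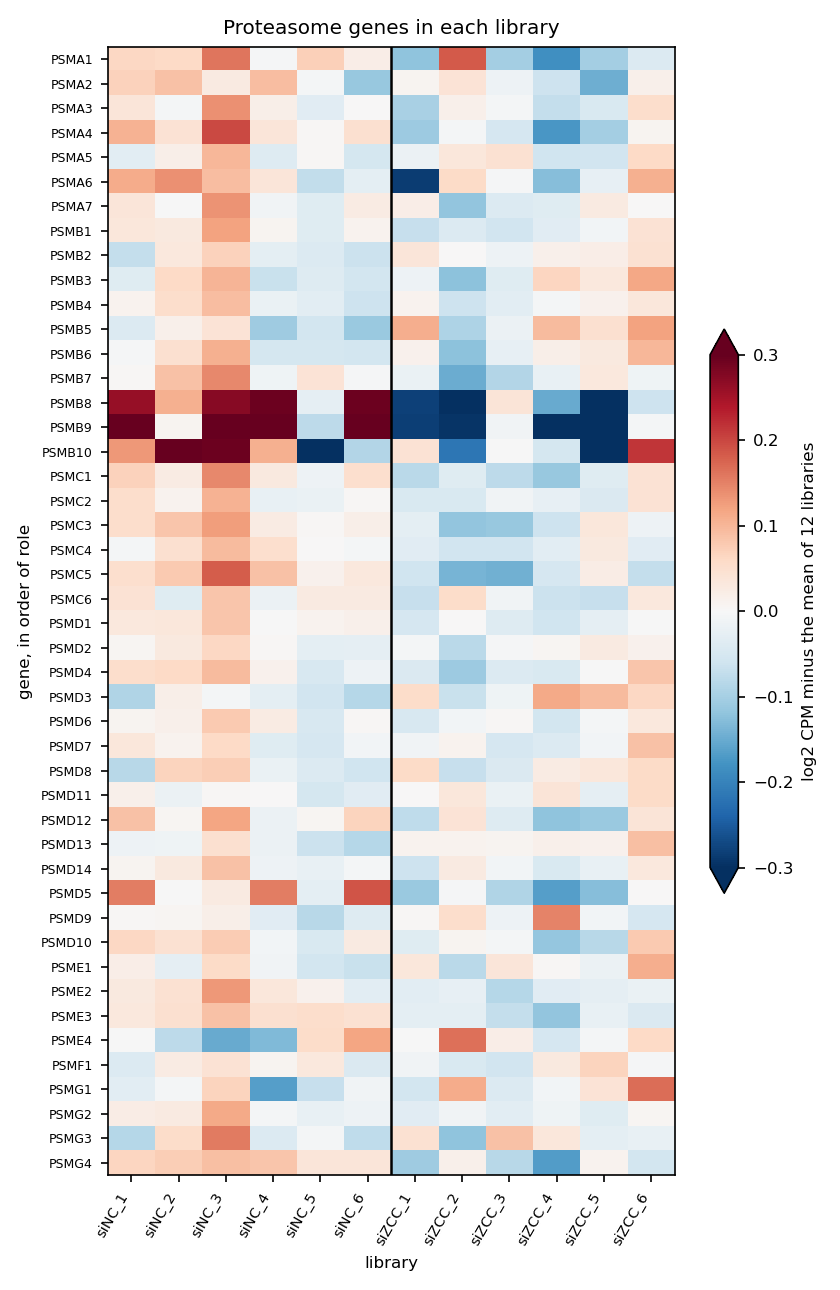
Deviation of each gene's log2 CPM from its mean over the 12 libraries (colour, capped at 0.3 either way), with libraries along the x axis and genes by role along the y axis. Columns siNC_3 and siZCC_6 are redder than most of their groups, and the PSMB8 and PSMB9 rows change from mostly red in siNC to mostly blue in siZCC.

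Genes that act with the proteasome but lie outside the name pattern were examined as lists chosen with earlier results of these data known. For comparison, 11.4% of all genes tested were higher and 10.8% lower. Among genes with a mean count of at least 1000 the shares were 17.2% and 14.7%. Of 13 partners of the particle, 2 were higher and 0 lower: PAAF1, a chaperone of the 19S ATPases, at 0.13 (SE 0.0332, adjusted p = 0.0120), and FBXO7, a binder of PSMF1, at 0.11 (SE 0.0255, adjusted p = 0.00614), both by edgeR. That count of higher partners lay near the shares above. The core maturation factor POMP was at -0.072 (adjusted p = 0.295). NFE2L1 is the transcription factor that raises proteasome subunit genes when the proteasome is inhibited. It stood at 339 ± 7.77 CPM in siNC against 360 ± 13.4 CPM in siZCC (SD, n = 6 each; log2 fold change 0.084, SE 0.0288, adjusted p = 0.0436, edgeR). Of the 8 genes of its pathway 2 were higher and 2 lower. SYVN1, a ligase of the endoplasmic reticulum, was at 0.099, NGLY1, the deglycosylase that activates NFE2L1, at -0.13, and the small partner MAFF at -0.19. Of 14 genes for ubiquitin supply and delivery, 3 were higher and 1 lower. The delivery receptor UBQLN4 was at 0.11, and the ubiquitin gene UBB fell by 0.27 on the log2 scale (adjusted p = 0.00214, edgeR).

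In the 2 lists around the inducible subunits, the genes that passed the test were all lower. Of 12 genes of interferon signalling, 3 were lower and 0 higher, where 10.8% of all genes were lower and 11.4% higher. Of genes with a mean count of at least 1000, 14.7% were lower and 17.2% higher. The log2 fold changes of the 12 lay on both sides of 0, from -0.42 to 0.046, with a median of -0.020. NLRC5, the transactivator of MHC class I genes, gave 7.79 to 11.5 CPM in siNC against 6.40 to 7.69 CPM in siZCC, without overlap (log2 fold change -0.42, SE 0.0829, adjusted p = 0.00174, edgeR). The receptor chain IFNGR2 was at -0.12 (SE 0.0345, adjusted p = 0.0208). IRF1, an activator of PSMB9 and TAP1, was at -0.17 (SE 0.0666, adjusted p = 0.0818) and did not pass.

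Of 13 genes of MHC class I processing, 7 were lower and 0 higher, beside the same shares of all genes and of abundant genes. The most changed were HLA-B at -0.61 (SE 0.0934, adjusted p = 2.1e-04) and HLA-C at -0.56 (SE 0.0816, adjusted p = 1.4e-04), both by edgeR and each without overlap between groups. HLA genes are near-identical in parts, and how reads that fit several of them were counted is not given, so their single values are uncertain. The peptide transporter TAP2 was lower, at -0.24 (SE 0.0780, adjusted p = 0.0327). Its partner TAP1, which shares an upstream interval with PSMB9, was at -0.097 (SE 0.0406, adjusted p = 0.0987), and the test did not call it.

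**Figure D5:**
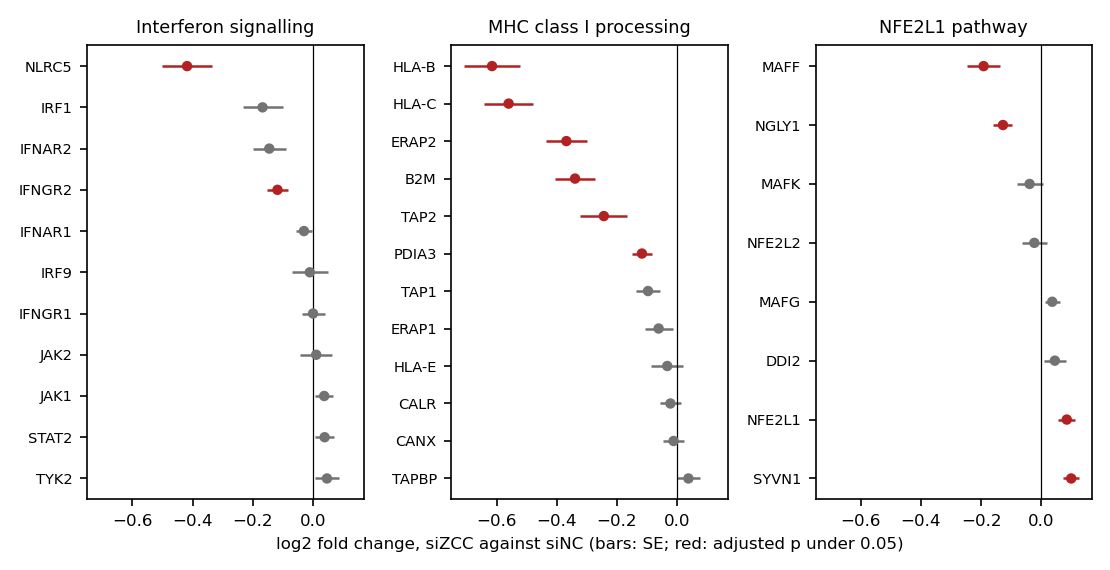
Log2 fold change, siZCC against siNC (x axes; points are edgeR estimates, bars 1 SE, 6 libraries per group), of genes of interferon signalling, MHC class I processing and the NFE2L1 pathway (y axes; the first 2 lists are not shown whole). Red marks an adjusted p under 0.05, and all red points lie below 0 in the first 2 panels, while the third has 2 on either side.

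The antisense gene PSMB8-AS1, at the PSMB8 and PSMB9 locus, fell by 0.56 on the log2 scale (SE 0.158, adjusted p = 0.0178, edgeR), at a mean of 43.7 counts. The kit marks strand, but the setting used in counting is not given, so the reads of an antisense pair may not be separated.

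Markers of the cells were measured beside these results, and their part in them was not tested. For the counts of markers that passed, the shares of all genes tested were 11.4% higher and 10.8% lower. Of genes with a mean count of at least 1000, 17.2% were higher and 14.7% lower. The labelled neurons held neuronal transcripts, summed over 10 markers at 2717 to 3131 CPM in siNC against 2495 to 2863 CPM in siZCC (1 higher, 4 lower). MAP2 was at 1027 CPM in siNC, but TUBB3 was at 14.2 CPM and RBFOX3 at 1.27 CPM. Progenitor markers were at 5761 to 6144 CPM and 5817 to 6352 CPM (3 higher, 1 lower of 8), astrocyte markers at 1637 to 1860 CPM and 1704 to 2025 CPM (3 higher, 1 lower of 8), and oligodendrocyte markers at 154 to 194 CPM and 160 to 195 CPM (0 higher, 1 lower of 8). All 12 markers of dividing cells were lower, with sums of 795 to 905 CPM in siNC against 607 to 710 CPM in siZCC that did not overlap.

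Markers of leukocytes, which express the inducible subunits strongly, were near 0. The sum of their 10 markers was 1.91 to 3.66 CPM in siNC against 2.15 to 3.33 CPM in siZCC, and none of the 5 that could be tested passed. CSF1R was the highest at 1.07 CPM in siNC, and AIF1 and C1QA were at 0.0774 and 0.0136 CPM. Endothelial markers were at 12.4 to 17.6 CPM in siNC and at 8.62 to 10.7 CPM in siZCC, and 2 of the 6, TEK and CLDN5, were lower. These 2 made up most of the sum, with means of 9.46 and 4.35 CPM in siNC. PECAM1, CDH5 and VWF were near 0 and not lower, with means of 0.268, 0.0612 and 0.0894 CPM in siNC and 0.270, 0.104 and 0.115 CPM in siZCC. Fibroblast markers were at 245 to 481 CPM and 222 to 353 CPM (1 higher, 3 lower of 8), and pluripotency markers at 15.4 to 17.0 CPM and 19.99 to 21.9 CPM (2 higher, 0 lower of 6).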

How the data were processed

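RNA-seq of 12 libraries was analysed, 6 siNC and 6 siZCC, grouped by the sample titles. The authors deposited whole-number counts per gene symbol, 1 column per library, and every column matched 1 sample. Lysis was in Qiazol and libraries were made with a directional NEBNext Ultra II kit, per the labels' protocols. Per the submitters' processing notes, bcl2fastq 2.17, STAR 2.7.6a, featureCounts 2.0.1 and the build GRCh38 were used. The annotation, the strand setting and the treatment of reads that map to several places are not given in the sources used here, so overlapping and near-identical genes may share reads.

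The deposited counts entered edgeR 4.0.16 (R 4.3.3) unchanged: filterByExpr by group, TMM scaling, and the quasi-likelihood test with no covariates. P-values were adjusted by Benjamini-Hochberg over the 24671 genes kept, with a threshold of 0.05. The SE is the log2 fold change divided by the square root of F, and 95% intervals use the test's degrees of freedom. CPM values use TMM-scaled totals. Totals of 76115083 to 120023356 counts leave even the scarcest gene of the set at 80 counts or more.

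The genes and lists were chosen with earlier results of these data known. Named 1 by 1 were the inducible set, the catalytic subunits they replace, every other proteasome gene that passed, the extremes of each role, up to 3 passing genes of smallest p per pathway list, and NFE2L1, IRF1, NLRC5, TAP1 and TAP2. Some list genes that this rule names count in the lists but are not reported here. PSMB4, PSMD4, PSMD10, PSMD14, PSMG2, PSMG3, POMP, PSMB8-AS1, genes with shared exons and the cell markers printed were named outside that rule, after their values were seen.

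Positions, principal transcripts and shared exons came from GENCODE v29 (GRCh38), and promoters from RefSeq (GRCh38.p14). Alternatives were scaling by upper quartiles or DESeq2 size factors, other filters on low counts, the Wald test of DESeq2 1.42.0, voom in limma 3.58.1, a replicate block, 1 surrogate variable from sva 3.50.0, IL1B level as a covariate, a GC and length correction, thinning to the smallest total, and leaving out each library. Tables were handled in Python 3.11.15 with pandas 2.3.3, numpy 2.4.6 and scipy 1.17.1, and figures drawn with matplotlib 3.10.9. Protein levels and splicing were not analysed here.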

Additional observations from a re-analysis of the deposited data

Results flagged for a closer look

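For 7 genes 1 library lay far from the other 5 of its group, by a gap beyond Dixon's critical share of the group's range. In all 94 groups were examined, and chance gives such a library in about 1 of 20. In siZCC replicate 2, PSMA1 was the highest of its group at 15.1 CPM (others 11.7 to 12.9) and PSMD2 the lowest at 259 CPM (others 273 to 279). PSMC4 was the highest in siZCC replicate 5 at 89.9 CPM (others 84.7 to 86.2), and PSMD13 in siZCC replicate 6 at 101.5 CPM (others 95.9 to 96.3). PSME2 was the lowest in siZCC replicate 3 at 35.9 CPM (others 37.2 to 37.6). In siNC replicate 3, PSME3 was the highest at 122 CPM (others 117 to 119) and PSMG2 at 30.1 CPM (others 27.4 to 28.3). Of these genes only PSME3 passed the test between groups, and it passed without that library too.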

How the results depend on the processing

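The count of 9 proteasome genes ranged from 6 (1 surrogate variable) to 12 (without siZCC replicate 2) over 24 alternatives, against 5481 genes in all (4261 to 6407). PSMB8 (-0.45 to -0.36) and PSMB9 (-0.51 to -0.42) passed in all 24, as did PSMC5 and PSME3, and all 9 kept their direction in all 24. PSMG4, PSMD5 and PSMA4 lost their call in 1 of 24, with the surrogate variable, where PSMC1 lost it too (adjusted p = 0.141). PSMC1 lost its call in 9 of 24, the GC and length correction among them (adjusted p = 0.0572), and PSMC3 in 8 of 24. Replicate numbers did not pair the libraries (correlations of deviations -0.077 to 0.018, and 0 siNC libraries matched best their own number). With the replicate block 7 genes passed, without PSMC1 (adjusted p = 0.0580) and PSMC3 (adjusted p = 0.0750). Higher genes appeared in 3 alternatives: PSME4 with the surrogate variable, PSMB5 (0.10, adjusted p = 0.0301), PSMD3 and PSMD13 with the GC and length correction, and PSMB5 (0.11, adjusted p = 0.0295) and PSMD3 without siZCC replicate 2. The median of the 46 moved to -0.017 with the GC and length correction and to -0.027 without siNC replicate 3. PSMB6, near 0, turned negative with no filter on low counts (-0.0028), upper quartile scaling (-0.0057), the surrogate variable (-0.0089), the GC and length correction (-0.0014) and thinning (-0.00030), and ranged from -0.021 to 0.027 when each library was left out. The count of 2 genes without overlap became 5 with no filter, 4 with thinning and 5 without both libraries that led most genes (4 lower, 1 higher). Of the abundant genes, 7.42%, 6.92% and 8.78% were then wholly lower, and without both libraries 9.85% were wholly higher. The count ran from 2 to 6 when 1 library was left out. It was 6 of the 46 without siNC replicate 5, siZCC replicate 5 or siZCC replicate 6. Of the 41 abundant proteasome genes, 4, 6 and 6 were then wholly lower, beside 8.08%, 8.08% and 8.02% of all abundant genes. Without siZCC replicate 3 it was 4 of the 46, and 3 of the 41 were wholly lower, beside 7.39%. The causes were not tested. At a mean of 129 counts, PSMB10 had an interval too wide to tell a fall from none.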
